A study of Homo sapiens with 4 samples.

Results

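The genes described here are 10 targets of the transcription factor NF-kB: the neutrophil-attracting chemokines CXCL1, CXCL2, CXCL3, CXCL5 and CXCL8, the chemokine CCL20, the secreted proteins LCN2 and IL32, and the feedback inhibitors NFKBIA and TNFAIP3. They were chosen by gene symbol, with 1 probe set each, from 18417 genes measured on the array, and the choice was made with earlier results of these same data known. The arrays measured RNA from cells of SNU-16, a human gastric carcinoma line, recovered after growth in BALB/c nude mice, which lack T cells. In round 1, SNU-16 cells were implanted into the stomach wall, and cells were recovered from the stomach tumour and from ovarian metastases and cultured for 7 days. In round 2 the recovered cells were implanted into the stomach again, where those of stomach origin gave a stomach tumour and those of ovary origin an ovarian metastasis. There are 4 arrays, 1 for each combination of site (stomach or ovary) and round, so no combination has a replicate.

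All groups share the parental line, the host strain and the stomach as the place of injection. Each round 2 line came from the round 1 line of its own site, so the 2 arrays of a site are successive passages of 1 lineage, and p-values measure only the spread between these samples. The descriptions of the round 2 samples contradict their titles: the stomach sample is described as cultured from ovary, and the last line on the ovary sample locates its tumour in the stomach. Titles and tissue labels were followed here. An exchange of these 2 samples would alter the site differences of round 2 and over both rounds and every round difference within a lineage, and would leave the site differences of round 1 and the comparison of rounds over both sites as they are.

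NF-kB is held in the cytoplasm by inhibitory IkB proteins until receptors such as those for tumour necrosis factor or interleukin 1 activate a kinase complex that marks the inhibitors for destruction. The freed dimers enter the nucleus and turn on chemokine genes together with genes for their own inhibitors, so that a pulse of activity is followed by its shutdown. In gastric epithelium the pathway is best known for its response to infection, in which CXCL8 and related chemokines draw neutrophils to the mucosa. The 5 CXCL chemokines share the receptor CXCR2 and lie in 1 cluster of related genes on chromosome 4.

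The promoters show what these genes have in common by sequence and where they part. Promoters of 250 bases before to 50 bases after the annotated start were taken from RefSeq (assembly GRCh38.p14) for all 10 genes. IL32 has 2 promoters in that table. Both strands were searched for the NF-kB consensus, for a shorter form, GGNNTTNCC, that overlaps it, and for TGANTCA. The last is a loose form of the site of the AP-1 factors with any base in the centre, so a match need not be an AP-1 site. The NF-kB consensus was found in 9 of the 10 genes and 9 of their 11 promoters, against 5.91% of all 35116 promoters. The shorter form was found in 9 of 10 genes and 9 of the 11 promoters, against 17.1%. CXCL8 lacked the first and LCN2 the second. All 10 genes, and 10 of their 11 promoters, held at least 1 of the forms, as did 19.9% of all promoters. TGANTCA was found in CXCL8, as TGACTCA, and in LCN2, as TGAATCA, thus in 2 of the 11 promoters, against 7.71% of all promoters. The genes were picked as NF-kB targets, so the match itself is a description, and no match says only that the letters are not in this window.

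The windows below run from position -190 to -31 relative to the start, 5′ to 3′ along the gene's own strand. They are shown for the closely related CXCL1, CXCL2 and CXCL3, whose RNA levels differed in pattern, for CXCL8, for both feedback inhibitors and for LCN2, whose pattern differed again. Capitals mark every match to the 3 motifs on either strand.
CXCL1, chr4:73869203-73869362, plus strand: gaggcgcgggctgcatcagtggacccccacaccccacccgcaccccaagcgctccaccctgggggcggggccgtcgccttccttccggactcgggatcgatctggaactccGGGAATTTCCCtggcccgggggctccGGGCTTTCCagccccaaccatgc
CXCL2, chr4:74099226-74099385, minus strand: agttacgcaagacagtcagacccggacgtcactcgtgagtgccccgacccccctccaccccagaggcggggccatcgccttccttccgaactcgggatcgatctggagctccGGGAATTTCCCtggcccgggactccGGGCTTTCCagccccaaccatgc
CXCL3, chr4:74038720-74038879, minus strand: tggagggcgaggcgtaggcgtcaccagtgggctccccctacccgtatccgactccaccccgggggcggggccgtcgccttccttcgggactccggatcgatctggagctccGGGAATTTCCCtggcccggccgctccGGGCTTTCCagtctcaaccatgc
CXCL8, chr4:73740379-73740538, plus strand: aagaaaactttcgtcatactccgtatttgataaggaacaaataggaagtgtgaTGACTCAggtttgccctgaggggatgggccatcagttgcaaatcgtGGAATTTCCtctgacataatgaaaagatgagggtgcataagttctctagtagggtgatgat
TNFAIP3, chr6:137867069-137867228, plus strand: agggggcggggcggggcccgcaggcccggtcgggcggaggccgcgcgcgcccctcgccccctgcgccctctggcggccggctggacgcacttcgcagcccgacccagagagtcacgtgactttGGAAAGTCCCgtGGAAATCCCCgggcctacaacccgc
NFKBIA, chr14:35404780-35404939, minus strand: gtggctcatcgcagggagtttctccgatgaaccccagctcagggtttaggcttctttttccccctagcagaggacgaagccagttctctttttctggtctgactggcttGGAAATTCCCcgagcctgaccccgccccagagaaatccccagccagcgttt
LCN2, chr9:128149263-128149422, plus strand: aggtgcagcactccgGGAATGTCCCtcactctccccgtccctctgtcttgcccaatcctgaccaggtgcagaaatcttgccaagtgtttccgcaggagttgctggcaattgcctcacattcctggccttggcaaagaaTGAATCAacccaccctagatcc

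CXCL1, CXCL2 and CXCL3 carried the same pair of NF-kB forms, the first beginning at -79, -78 and -79 and the second at -53 in all 3 genes. The promoters of CXCL1 and CXCL3 were identical in 82.5% of aligned positions, those of CXCL2 and CXCL3 in 73.8%, and those of CXCL1 and CXCL8 in 42.6%. In CXCL8 the shorter form began at -91, downstream of the TGANTCA match at -137. TNFAIP3 held 2 matches close together, at -67 and -55 on the opposite strand, and NFKBIA 1 consensus match at -81. In LCN2 the only match to the NF-kB consensus lay further out, at -175.

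**Figure D1:**
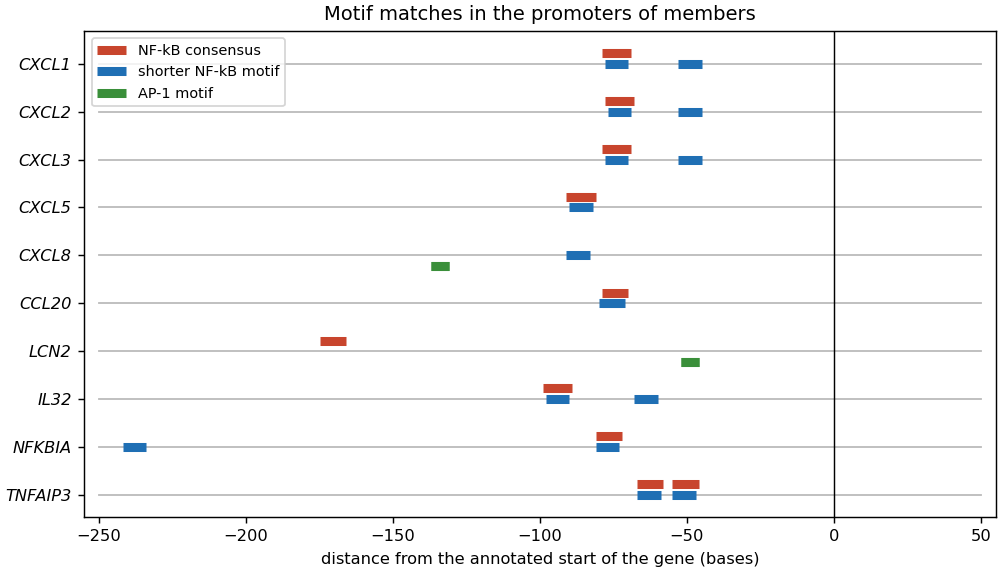
Positions of motif matches in the RefSeq promoters of the 10 genes, drawn to scale as distance in bases from the annotated start (vertical line at 0); each bar is a match on either strand, in red for the NF-kB consensus, blue for the shorter form and green for TGANTCA (labelled AP-1 motif, with any base in the centre), and the first of the 2 IL32 promoters is drawn. In 8 of the 10 genes a consensus match lies within 100 bases of the start; LCN2 has its match at -175 and CXCL8 has only the shorter form.

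Values are log2 expression on each array, as deposited, and a difference of 1 is a 2-fold difference. Array medians over all 33297 rows ran from 6.80 to 6.84, and precision is limited by there being only 4 arrays. Genes with a mean over the 4 arrays above a signal minimum of 5.64 were tested, which 9 of the 10 genes passed and CCL20 did not. The epithelial markers of the line were well above it, with the keratin KRT8 between 12.19 and 12.69 and the other 6 at 9.74 or higher on every array. Levels of different probe sets are not compared with each other.

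Among the CXCR2 ligands, CXCL2 stood furthest apart between arrays. CXCL2 was at 6.22 in stomach round 1, 6.46 in stomach round 2, 6.10 in ovary round 1 and 7.71 in ovary round 2 (probe set 8100994). The round 2 ovary array stood alone, 1.25 above the next, and the other 3 lay close together. In ovary lines the round 2 value was 3.07-fold that of round 1, the 22nd highest difference among 14547 genes tested, and in stomach lines it was 1.19-fold. CXCL2 encodes a chemokine that acts on neutrophils through CXCR2.

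CXCL8, which encodes interleukin 8, the best known neutrophil attractant, had the same order of arrays. It was at 6.54 in stomach round 1, 6.58 in stomach round 2, 6.26 in ovary round 1 and 7.33 in ovary round 2 (probe set 8095680). Again the round 2 ovary array was highest and the round 1 ovary array lowest, and the stomach arrays differed by 0.042. The round difference in ovary lines was 2.10-fold, the 88th highest of the genes tested. Its round 1 value, 6.26, was not far above the signal minimum. CXCL1, first described as a melanoma growth factor, was at 7.10 and 7.24 in stomach and at 7.03 and 7.60 in ovary, rounds 1 and 2 (probe set 8095697). Its round difference was 0.15 in stomach and 0.57 in ovary, the 365th highest, and the order of arrays was that of CXCL8.

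CXCL3 and CXCL5 showed none of this. CXCL3 was at 6.05 and 6.14 in stomach and at 6.14 and 6.02 in ovary, rounds 1 and 2 (probe set 8100984). CXCL5, which is made mainly by epithelial cells, was at 6.61 and 6.74 in stomach and at 6.73 and 6.63 in ovary (probe set 8100977). Their 4 values spanned 0.12 and 0.13. Between the rounds of the ovary lines they differed by -0.12 and -0.11, beside a median absolute difference of 0.13 over all genes tested. Their profiles lay closest together of all pairs of the 10 genes, at a distance of 0.040 after each gene's mean was taken off. Being nearly flat, both genes lie close by this measure, so the distance is no sign of a shared pattern. The sign of their round and site differences over all arrays turned when single arrays were left out, and that of the CXCL3 round difference (-0.018) also under quantile normalization and median centring.

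**Figure D2:**
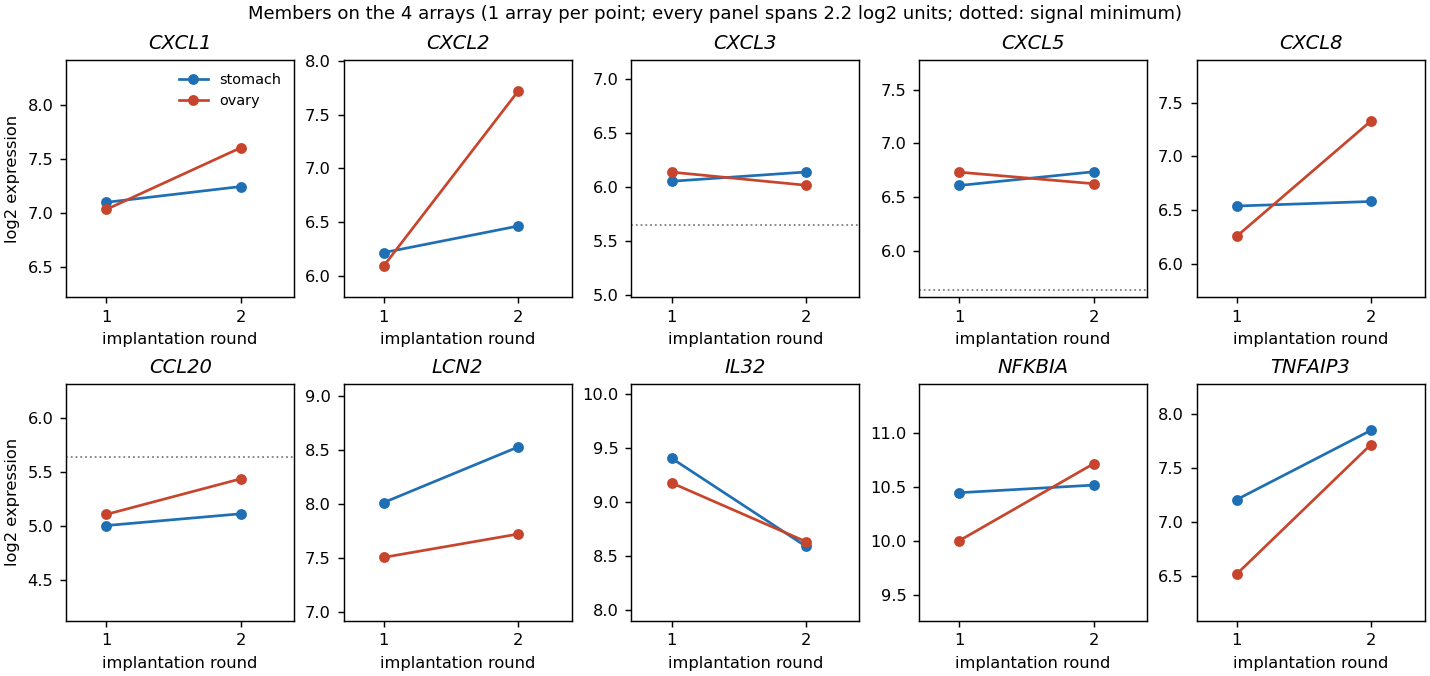
Log2 expression (vertical axis) of each gene by implantation round (horizontal axis), 1 array per point, with stomach lines in blue, ovary lines in red and lines joining the arrays of a lineage; every panel spans the same number of log2 units, and the dotted line is the signal minimum of 5.64 where it falls in the panel. CXCL2 (7.71) and CXCL8 (7.33) are highest on the round 2 ovary array, LCN2 is lower in ovary in both rounds, IL32 is lower in round 2 at both sites, and CXCL3 and CXCL5 are nearly flat.

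CXCL1, CXCL2 and CXCL3 are close paralogs, and whether their probe sets share signal was not tested. In the chromosome 4 cluster, whose genes are named here for their position and taken in RefSeq gene order from CXCL8 to CXCL2, the neighbours CXCL6, PF4 and PPBP lay below the signal minimum on average. PF4V1, a platelet factor 4 variant just above that minimum, was at 5.68 and 5.88 in stomach and at 5.68 and 5.55 in ovary, rounds 1 and 2. CXCL6, another CXCR2 ligand, ran from 5.03 to 5.15. Higher values on the round 2 ovary array were thus seen at CXCL8, CXCL1 and CXCL2 but not at PF4V1, which lies between CXCL8 and CXCL1, or at CXCL5 and CXCL3, which lie between CXCL1 and CXCL2. Outside that stretch, RASSF6, next to CXCL8, had the order of arrays of CXCL8, at 7.41 and 7.91 in stomach and 7.40 and 8.03 in ovary. MTHFD2L, beyond CXCL2, was highest on the round 1 ovary array, at 6.49.

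CCL20, the ligand of CCR6 on dendritic and lymphoid cells, stayed under the signal minimum on every array, at 5.01 and 5.12 in stomach and 5.11 and 5.44 in ovary (probe set 8048864). It was not tested. Its highest value was also on the round 2 ovary array. The receptors of these chemokines were under the minimum too. CXCR1 ran from 4.95 to 5.19, CXCR2 from 4.21 to 4.47 and CCR6 from 5.21 to 5.25.

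The feedback inhibitors read higher on the round 2 arrays than on the round 1 array of the same lineage. TNFAIP3, which encodes the ubiquitin-editing enzyme A20, was at 7.21 in stomach round 1, 7.85 in stomach round 2, 6.52 in ovary round 1 and 7.72 in ovary round 2 (probe set 8122265). Both round 2 values lay above both round 1 values, and the round 1 ovary array was the lowest. The round difference was 1.56-fold in stomach, the 128th highest of 14547, and 2.30-fold in ovary, the 55th highest. Over both sites it was 0.92 ± 0.24 (SE), with means of 6.86 ± 0.49 (SD, n = 2) in round 1 and 7.79 ± 0.093 (SD, n = 2) in round 2. The 2 arrays of a round are a stomach and an ovary line, so each SD is a site difference and not a spread of replicates. The site difference also counts into the SE, which was 0.15 with site added to the fit. The limma adjusted p over all genes tested was 0.287, so it did not pass.

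NFKBIA encodes IkB-alpha, the inhibitor that NF-kB re-makes first. It was at 10.45 and 10.52 in stomach and at 10.00 and 10.72 in ovary, rounds 1 and 2 (probe set 7978644). The stomach arrays differed by 0.071 and the ovary arrays by 0.71, a 1.64-fold difference and the 211th highest. The ovary arrays thus held both the highest and the lowest value, and the stomach values fell between them.

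LCN2 and IL32 followed other patterns. LCN2, which encodes lipocalin 2, a protein that starves bacteria of iron by binding siderophores, was at 8.01 and 8.53 in stomach and at 7.50 and 7.72 in ovary, rounds 1 and 2 (probe set 8158167). Both ovary values lay below both stomach values. Ovary minus stomach came to -0.51 in round 1 and to -0.81 in round 2, where it was the 18th lowest of 14547. Means were 8.27 ± 0.36 (SD, n = 2) in stomach and 7.61 ± 0.15 (SD, n = 2) in ovary. Each SD is the spread between the rounds of a lineage, which also counts into the SE of the fitted difference. The fitted difference was -0.66 ± 0.20 (SE), with an unadjusted p of 0.025 and an adjusted p of 1 by limma, so it did not pass. With the sample labels of round 2 exchanged, the stomach and ovary values of LCN2 would overlap.

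IL32 encodes a cytokine that was first described as a transcript induced in lymphocytes and that is also made by epithelial cells. It was at 9.41 in stomach round 1, 8.59 in stomach round 2, 9.18 in ovary round 1 and 8.63 in ovary round 2 (probe set 7992828). Both round 2 values lay below both round 1 values, opposite to the feedback inhibitors. The round difference was -0.82 in stomach, the 34th lowest of the genes tested, and -0.54 in ovary, the 189th lowest. Over both sites it was -0.68 ± 0.10 (SE), from 9.29 ± 0.16 (SD, n = 2) to 8.61 ± 0.030 (SD, n = 2), with a limma adjusted p of 0.287. Here too each SD is the spread between the stomach and the ovary array of a round. The site difference of IL32 was -0.23 in round 1 and 0.043 in round 2.

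Between rounds, 0 of the 9 genes tested passed limma at an adjusted p under 0.05, as did 0 of all 14547 genes (0%). At an unadjusted p under 0.05 there were 2 of 9, IL32 and TNFAIP3, against 15.0% of all genes. Round 2 lay above round 1 on both arrays for 5 of the 9, CXCL1, CXCL2, CXCL8, NFKBIA and TNFAIP3, against 22.2% of all genes, and below it for 1, IL32, against 26.8%. The fitted round differences of CXCL2 (0.93 ± 0.42 SE, adjusted p = 0.375) and CXCL8 (0.56 ± 0.27 SE, adjusted p = 0.400) rested on the round 2 ovary array. Without that array they were 0.31 and 0.18, and without the round 1 stomach or round 2 stomach array that of CXCL2 was 0.99 and 1.56 and that of CXCL8 0.70 and 0.93. CXCL1 differed by 0.36 ± 0.14 (SE, adjusted p = 0.335), and by 0.18 without the round 2 ovary array and 0.54 without the round 2 stomach array. NFKBIA differed by 0.39 ± 0.17 (SE, adjusted p = 0.373), by 0.17 without the round 1 ovary array and by 0.61 without the round 1 stomach array. LCN2 differed by 0.37 ± 0.32 (SE, adjusted p = 0.592), with values from -0.039 without the round 2 stomach array to 0.77 without the round 2 ovary array. Leaving out 1 array unbalances the sites, so all these values also carry part of the site difference. Within the lineages LCN2 was higher in round 2 at both sites, by 0.51 in stomach and 0.22 in ovary. TNFAIP3 came to 0.58 without the round 1 ovary array.

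Within the lineages, 3 of the 9 genes (CXCL2, TNFAIP3 and CXCL8) were at least 2-fold higher in round 2 in ovary lines, against 0.701% of all genes, and 0 of 9 in stomach lines, against 0.158%. The median round difference of the 9 genes was 0.57 in ovary and 0.13 in stomach, beside -0.0021 and -0.017 over all genes tested. Each of these differences compares 1 array with 1 and has no p-value. The test of whether the round difference differed between lineages was passed by 0 of the 9 genes and by 0 of all genes (0%), with 0 of 9 and 1.33% at an unadjusted p under 0.05. The difference between the lineages was 1.37 ± 1.03 (SE) for CXCL2, 1.03 ± 0.59 for CXCL8, 0.64 ± 0.42 for NFKBIA, 0.56 ± 0.96 for TNFAIP3 and 0.42 ± 0.40 for CXCL1, each with a limma adjusted p of 1. That model holds the 1 contrast alone, so the site and round differences of a gene count into its error. The site and round fits likewise hold 1 term each, so the round difference counts into the error of site and the site difference into that of round.

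**Figure D3:**
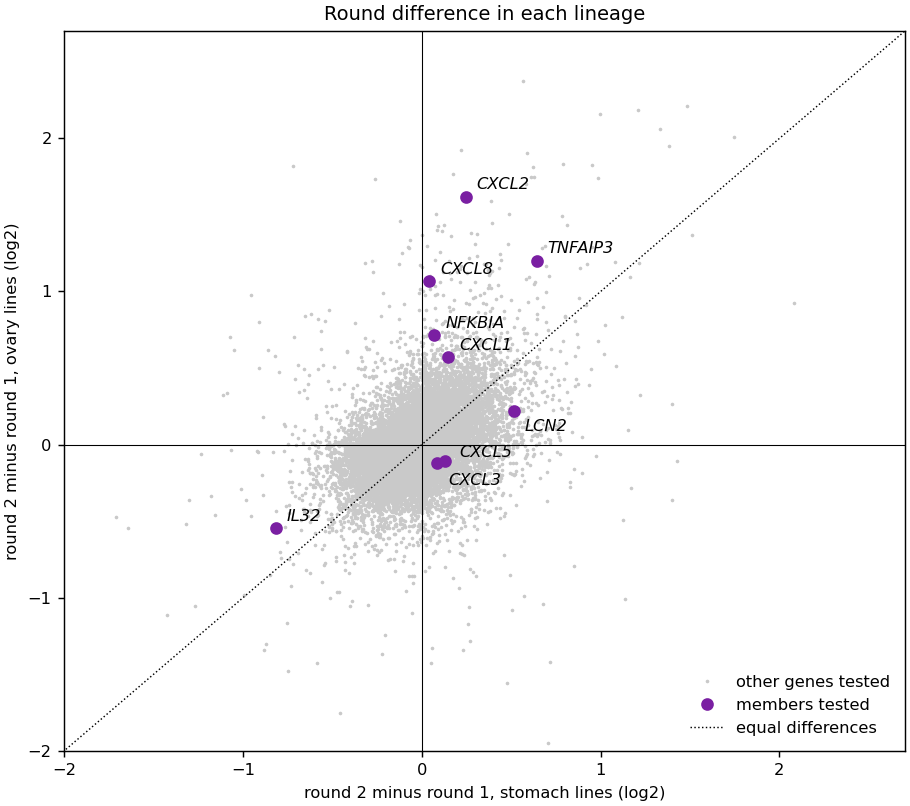
Round 2 minus round 1 in log2 units in stomach lines (horizontal axis) and in ovary lines (vertical axis), 1 array against 1, for the 9 genes tested (purple, named) and the other genes tested (grey), with a dotted line where both are equal; 4 grey genes lie outside the axes. CXCL2 (0.25 and 1.62), CXCL8 (0.042 and 1.07) and NFKBIA (0.071 and 0.71) lie well above the dotted line, TNFAIP3 (0.64 and 1.20) is high on both axes, and IL32 (-0.82 and -0.54) is low on both.

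Between sites, 0 of the 9 genes passed limma at an adjusted p under 0.05, as did 0 of all genes (0%), and 1, LCN2, had an unadjusted p under 0.05, against 2.60% of all genes. Ovary lay below stomach on both arrays for LCN2 alone of the 9, against 11.2% of all genes, and above it for 0, against 13.4%. In round 1, 7 of the 9 were lower in ovary, against 7481 of all 14547 genes. Their median was -0.23 beside -0.0053 over all genes. In round 2, 5 of 9 were higher, against 51.9% of all genes, with a median of 0.043 beside 0.0076. In round 2, CXCL2 alone of the 9 was at least 2-fold higher in ovary (2.38-fold), against 0.172% of all genes, and 0 of 9 were at least 2-fold lower, against 0.0481%. CXCL8 went from -0.28 in round 1 to 0.75 in round 2, NFKBIA from -0.44 to 0.20 and TNFAIP3 from -0.69 to -0.13. The site difference had opposite signs in the 2 rounds for 7 of the 9 genes, against 45.1% of all genes tested. For CXCL2 it was 0.56 ± 0.54 (SE) and -0.25 without the round 2 ovary array, for CXCL8 0.23 ± 0.36 and -0.30 without it, and for CXCL1 0.15 ± 0.21 and -0.14. For TNFAIP3 it was -0.41 ± 0.46 and 0.19 without the round 1 ovary array, and for NFKBIA -0.12 ± 0.25 and 0.23. Leaving out 1 array unbalances the rounds, so these values also carry part of the round difference. Within each round TNFAIP3 was lower in ovary. LCN2 kept its sign without any single array, from -0.92 without the round 1 stomach array to -0.40 without the round 2 stomach array.

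**Figure D4:**
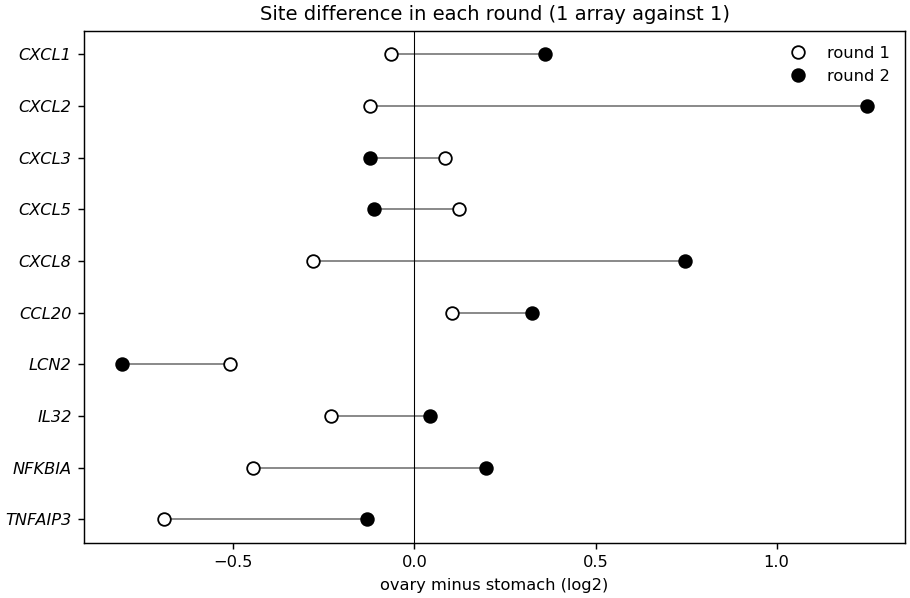
Ovary minus stomach in log2 units (horizontal axis) for each of the 10 genes in round 1 (open) and round 2 (filled), 1 array against 1, joined by a grey line. LCN2 is to the left of 0 in both rounds (-0.51 and -0.81), while CXCL2 (-0.12 and 1.25) and CXCL8 (-0.28 and 0.75) cross from left to right.

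Of the 9 genes, 6 were lowest on the round 1 ovary array, against 24.4% of all genes tested, and 4 highest on the round 2 ovary array, against 24.3%. Those 4 (CXCL1, CXCL2, CXCL8 and NFKBIA) were at both ends, lowest on the first and highest on the second, against 9.45% of all genes. Of the 7 epithelial markers 6 were also lowest on the round 1 ovary array, with a median round difference of 0.30 in ovary lines and 0.033 in stomach lines, and their part in the result was not tested. Genes closest to a member were sought among all genes tested by Euclidean distance over the 4 arrays, after each gene's mean was taken off, and with 4 points such likeness is only a description. Nearest to CXCL2 were DUSP1, a phosphatase that switches off MAP kinases (distance 0.34), CDKN1A, a cell cycle inhibitor (0.36), and DUSP10, a phosphatase of the same family (0.37). Nearest to CXCL8 were the adaptor NCK2 (0.094), the small nucleolar RNA SNORA70B (0.12) and ATF3, a stress-induced transcription factor (0.14). TNFAIP3 lay nearest to NMI, an interferon-inducible protein (0.024), GNA14, a G protein subunit (0.083), and NXPE4 (0.13). LCN2 lay nearest to the growth factor NRG4 (0.18), the sterol transporter GRAMD1B (0.19) and the transcription factor BHLHE40 (0.19).

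DUSP1 and ATF3 belong to the immediate early and heat shock genes, which also respond to handling of cells. All 11 measured genes of that list were higher in round 2 in ovary lines, with a median of 0.61, and 8 of 11 in stomach lines, with a median of 0.079, beside 47.0% and 44.1% of all genes tested. ATF3 was at 8.01 and 8.05 in stomach and at 7.89 and 8.91 in ovary, rounds 1 and 2. FOS was at 9.32 and 10.19 in stomach and at 8.94 and 9.67 in ovary, and thus higher in round 2 in both lineages, like TNFAIP3. ZFP36, which encodes a protein that destabilises cytokine mRNAs, was at 9.06 and 9.26 in stomach and at 8.98 and 9.23 in ovary. In limma, 0 of the 11 passed between rounds, and 3 of 11 had an unadjusted p under 0.05, against 15.0% of all genes. The part of handling in the differences of CXCL2, CXCL8 and TNFAIP3 was not tested.

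The NF-kB subunits followed the ovary arrays with small steps. All 5, NFKB1, NFKB2, RELA, RELB and REL, were lower in ovary in round 1 (median -0.24) and higher in ovary in round 2 (median 0.18). All 5 were lower in round 2 in stomach lines (median -0.087) and higher in ovary lines (median 0.28). REL was at 9.94 and 9.85 in stomach and at 9.70 and 10.02 in ovary, rounds 1 and 2. NFKB2, the precursor of the subunit p52 and itself a target of NF-kB, was at 8.16 and 7.93 in stomach and 7.90 and 8.23 in ovary. The difference between its lineages was 0.56, with an unadjusted p of 0.0301 and an adjusted p of 1 by limma. In that test 1 of the 5 subunits had an unadjusted p under 0.05, against 1.33% of all genes. Of all genes tested, 46.2% were higher in ovary in round 1 and 51.9% in round 2. In round 2, 44.1% were higher in stomach lines and 47.0% in ovary lines. Of the 5 subunits, 0 passed any of the 3 tests.

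Of the other IkB family members and feedback inhibitors, 12 of 13 were tested and 0 passed between sites, rounds or lineages. NFKBIZ, an atypical IkB protein needed for a subset of targets that includes LCN2, was at 8.11 and 8.29 in stomach and at 7.84 and 8.79 in ovary, rounds 1 and 2, the order of CXCL8. The deubiquitinase CYLD had the same order, with round differences of 0.30 in stomach and 0.80 in ovary lines. BCL3, an atypical IkB protein that partners p50 and p52, was at 8.94 and 9.35 in stomach and 8.69 and 8.89 in ovary, lower in ovary in both rounds, as LCN2 was. NFKBIE, ZC3H12A (an RNase that degrades cytokine mRNAs) and TNIP1 (a partner of A20) had round differences in ovary lines of 0.069, 0.25 and -0.084. The list as a whole had 6 of 12 genes higher and 5 lower in round 2 in ovary lines, with a median of 0.035, beside 47.0% of all genes higher.

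**Figure D5:**
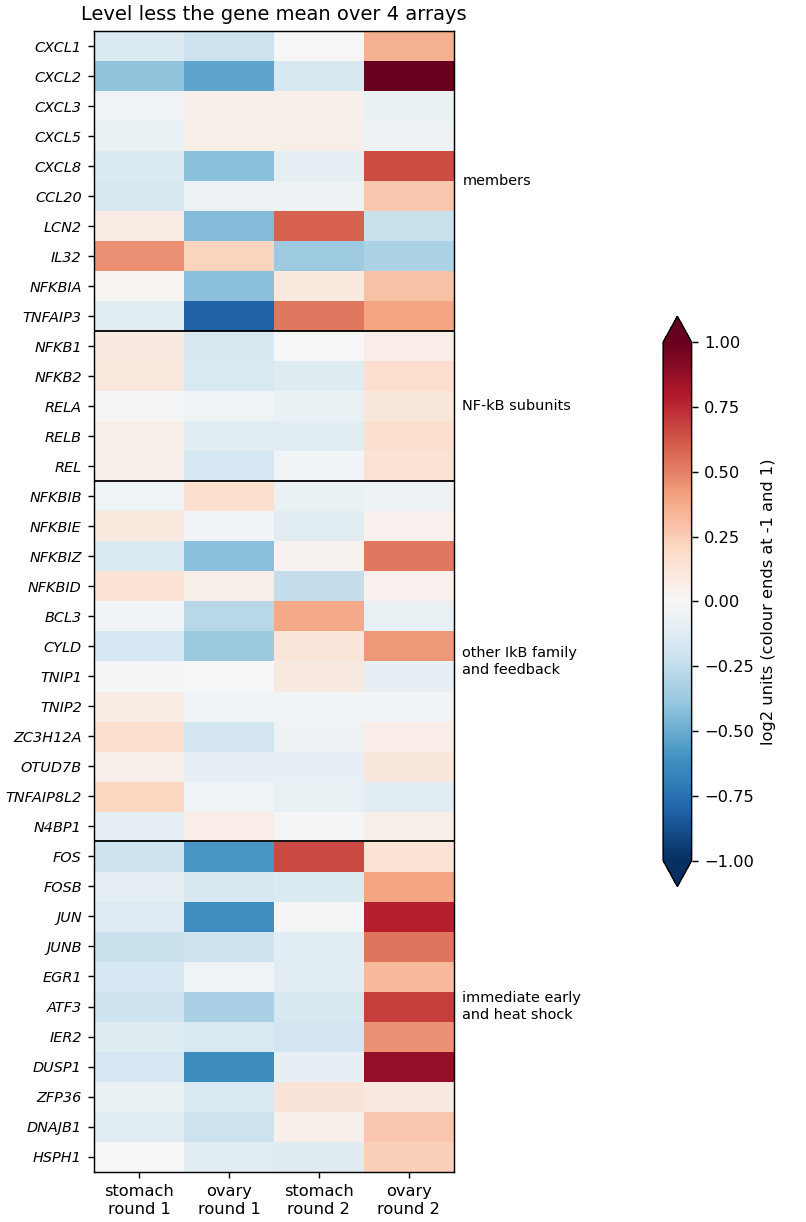
Log2 level less the gene's own mean over the 4 arrays (colour, red above and blue below, ending at -1 and 1) for the 10 genes, the 5 NF-kB subunits, the 12 other IkB family and feedback genes tested and the 11 immediate early and heat shock genes, with the arrays as columns. The round 2 ovary column is red for CXCL2, CXCL8, NFKBIZ, DUSP1 and ATF3 and the round 1 ovary column is blue for TNFAIP3, while LCN2 is blue in both ovary columns.

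Upstream of NF-kB, of the kinase complex and its adaptors 20 of 25 genes were measured, all 20 were tested and 0 passed. The kinases CHUK and IKBKB and the scaffold IKBKG had round differences in ovary lines of 0.0385, 0.0895 and 0.22. Of the 20 genes, 14 were higher there in round 2 (median 0.066), beside 47.0% of all genes tested. TRAF6, the ubiquitin ligase that carries interleukin 1 and Toll-like receptor signals, was at 11.29 and 11.28 in stomach and at 10.25 and 11.26 in ovary, so that the round 1 ovary array stood alone. Of the inducing receptors 11 were tested and 0 passed, with 9 of 11 higher in round 2 in ovary lines (median 0.14), beside 47.0% of all genes. The interleukin 1 receptor IL1R1 was at 6.73 and 6.84 in stomach and at 6.47 and 7.12 in ovary, in the order of CXCL8, and the tumour necrosis factor receptor TNFRSF1A ran from 9.09 to 9.33. TNFRSF12A, the receptor for TWEAK, was higher in ovary on both arrays, at 9.64 and 9.72 against 9.39 and 9.39 in stomach (limma unadjusted p = 0.0244, adjusted p = 1). Of all genes tested, 13.4% were higher in ovary on both arrays. Between sites, 1 of the 11 receptors had an unadjusted p under 0.05 in limma, against 2.60% of all genes.

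Of the cytokines that start the pathway, TNF ran from 5.67 to 5.90, near the signal minimum, and IL1A (4.87 to 5.56) and IL1B (4.57 to 4.87) were under it. TNFSF15 was at 7.27 and 7.14 in stomach and at 6.98 and 7.62 in ovary, highest on the round 2 ovary array. IL18, whose product is released by inflammasomes, was at 8.28 on the round 1 stomach array and between 9.13 and 9.26 on the other 3. Of the 9 tested, 4 were higher and 5 lower in round 2 in ovary lines (median -0.074), beside 47.0% of all genes higher, and 0 passed.

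Among NF-kB targets outside the set, 27 of the 37 measured were tested and 0 passed. In round 1, 23 of 27 were lower in ovary (median -0.091), beside 7481 of all 14547 genes tested (median -0.0053). In round 2, 15 were lower (median -0.019), beside 6622 of all genes tested (median 0.0076). Highest on the round 2 ovary array were 5 of the 27, or 18.5%, beside 24.3% of all genes tested. IER3, a stress-induced survival gene, was at 10.24 and 10.48 in stomach and at 10.29 and 10.97 in ovary. TNFAIP2 was at 7.44 and 7.74 in stomach and at 7.02 and 7.64 in ovary, the order of TNFAIP3. ICAM1, the adhesion molecule that neutrophils bind, went otherwise, at 6.95 and 6.95 in stomach and 6.78 and 6.58 in ovary. The chemokine CXCL16 (8.59 to 8.82) and the survival factor BCL2L1 (8.99 to 9.08) varied little. SAA1 (2.97 to 3.45) was under the minimum, and the complement genes C3 (6.21 to 6.55) and CFB (5.88 to 6.13) were close to it.

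Neutrophils and other leukocytes make several of these transcripts themselves. Of 15 leukocyte markers 14 were measured, and PTPRC, the common leukocyte antigen, lay between 3.97 and 4.11, under the minimum on every array. S100A8, a calcium-binding protein that neutrophils hold in quantity, lay between 4.69 and 4.90, and 4 of the 14 markers were under the minimum in all. The summed linear signal of the 14 markers, of which the macrophage marker CD68 had the highest signal, was 1925 and 1861 in stomach and 1665 and 1728 in ovary, rounds 1 and 2. None of the 10 markers tested was highest on the round 2 ovary array, beside 24.3% of all genes tested, and S100A9 was at 6.13 there against 6.40 to 6.62 elsewhere. The part of leukocytes in the values of the 10 genes was not tested. Of endothelial, fibroblast and ovarian markers, 2, 5 and 4 were tested, and 1 ovarian marker of these 11 was highest on that array. The array reads human sequence, and what RNA of mouse cells adds to it was not tested. In bulk RNA, fewer cells making a transcript and less transcript per cell cannot be told apart.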

How the data were processed

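Total RNA of pelleted cells was extracted with TRIzol, fragmented and biotin-labelled for Affymetrix arrays, per the labels' protocols. The values the authors deposited are log2 expression, in 1 table with a column for each array. The submitters' processing notes name Affymetrix Expression Console without a version, with the normalization not given in the sources used here. That the scale is log2 was inferred from the range of the values. If arrays were scaled to each other, a shift of all genes together would not be visible.

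Of 33297 rows, 19460 carry 1 gene symbol, 1754 several (not used) and 12083 none here. Symbols were updated by gene identifier through RefSeq (GRCh38.p14), in which 19429 of the 19460 were found. The probe set with the highest mean stood for a gene, and the 14547 genes above the 30th percentile of row means (5.64) were tested. Site, round and their interaction were each fitted alone, as 1 term, on all 4 arrays with limma 3.58.1 in R 4.3.3 (two-sided, Benjamini-Hochberg over all genes, 2 residual degrees of freedom). The fits were also run on simulated data with independent noise and changes in 1 term at a time. Those data lack the lineages of these arrays and are not used as support here.

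The 10 genes and the other lists were chosen with earlier results of these data known. The genes named are these 10, a written panel of pathway genes, a list's highest-signal gene, and the 3 genes nearest to each of the 4 members of widest range. Neighbours of the chemokine cluster were added by position. The replicate number is the round, and same-round arrays deviated from their site means with a correlation of 0.41 over genes. With 2 arrays per site, the 2 pairs of same-round arrays give this same value by construction. Alternatives were the replicate block, other signal minimums, scalings, probe set choice, priors, leaving out each array and an adjusted p under 0.10.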

Additional observations from a re-analysis of the deposited data

Results flagged for a closer look

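For 7 of the 9 genes tested, the site difference had opposite signs in the 2 rounds, 1 array against 1, as it had for 45.1% of all genes tested. The round 2 difference exceeded that of round 1 by 1.37 for CXCL2, 1.03 for CXCL8, 0.64 for NFKBIA, 0.42 for CXCL1 and 0.27 for IL32, and fell short of it for CXCL3 (-0.21) and CXCL5 (-0.23). None of the 7 passed the limma test of that difference (adjusted p = 1 for each). On the round 2 ovary array CXCL2 and CXCL8 stood 1.25 and 0.75 above the next highest array.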

How the results depend on the processing

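The number of genes that passed the adjusted p was 0 in each of the 3 comparisons under every alternative run, so 0 of these genes passed; the smallest adjusted p of any of them was 0.208, for IL32 and TNFAIP3 between rounds with the site as a replicate block. The replicate block thus changed no call: it gave 0 genes called in both comparisons. Of the recomputed differences of single genes, 276 kept their direction and 18 reversed. Most of the 276 could not have reversed. The block, signal minimums, probe set choice, priors and the adjusted p under 0.10 return the same difference for these genes by construction. Only the scalings and leaving out an array could change it. Under quantile normalization the round difference of CXCL3 was 0.0055 and with centring on medians 0.0062, against -0.018. The other reversals came from leaving out an array. A site difference then also carries part of the round difference, and a round difference part of the site difference. Site differences then ran from -0.14 to 0.43 for CXCL1, -0.25 to 1.37 for CXCL2, -0.080 to 0.042 for CXCL3, -0.057 to 0.070 for CXCL5, -0.30 to 0.77 for CXCL8, -0.50 to 0.32 for IL32, -0.48 to 0.23 for NFKBIA and -1.01 to 0.19 for TNFAIP3. Round differences ran from -0.079 to 0.044 for CXCL3, -0.051 to 0.072 for CXCL5 and -0.039 to 0.77 for LCN2. The interaction has no value without an array. With 1 array per site and round, a difference within a lineage or a round has no error of its own. Signals near 5.64, such as those of CXCL3, CCL20 and TNF, bound what can be measured. This limit also touches CXCL2 and CXCL8 on the round 1 ovary array.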
